A study of Homo sapiens with 24 samples.

Results

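The SLC25 carriers are the family of genes whose symbols begin with SLC25A and a number, and they were taken by that symbol from the gene counts of 4 human cancer cell lines. Of 23106 gene symbols, 50 matched. These comprised 48 carrier genes and 2 pseudogenes, SLC25A3P1 and SLC25A51P1, which had 0 counts in each of the 24 libraries. Polyadenylated RNA was sequenced from A549 (lung), HCT-116 (colorectal), PC3 (prostate) and T47D (breast) cells, each kept in 21% oxygen (normoxia) or in 0.5% oxygen (hypoxia) for 16 h, with 3 libraries in each of the 8 groups. The lines carried no introduced allele or drug, and they differed in medium, with F12K for A549 and PC3, McCoy's 5a for HCT-116 and DMEM for T47D. Line and medium cannot be told apart, except between A549 and PC3 cells, which shared a medium. The study's methods name alternative kits for RNA and for libraries, and several sequencers, without saying which served each line. Differences between lines, A549 and PC3 included, may thus also hold differences in preparation. The question for the family was which carriers changed in hypoxia in each line, and how far the lines differed in their carriers at rest. Nothing in the labels says whether replicate libraries came from separate cultures, so p values measure the spread between these libraries, which may be technical.

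Most SLC25 proteins sit in the inner mitochondrial membrane and exchange one small molecule for another, which makes them the route by which ADP and ATP, phosphate, citrate, amino acids, cofactors and iron enter or leave the matrix. A few members have moved elsewhere, such as SLC25A17 in peroxisomes and SLC25A46 in the outer mitochondrial membrane. In hypoxia, cells are known to shift from respiration towards glycolysis through the HIF transcription factors, which bind the core motif ACGTG or GCGTG.

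Library totals ranged from 22698584 to 62850747 counts, and carriers took between 0.240% and 0.384% of them. CA9, a classical HIF target, was higher in hypoxia in each line. The identity of the lines was checked on markers of each tissue. T47D cells had GATA3, PGR and ESR1 at means of 708, 635 and 166 CPM (counts scaled to a common library size) in normoxia and TFF1 at 1.61 CPM. The surfactant genes SFTPB and SFTPC were under 0.1 CPM and NKX2-1 was at 0 in A549 cells, KLK2 and KLK3 were at 0 in PC3 cells, and in HCT-116 cells CDX2 was at 11.8 CPM while CDX1 and VIL1 were at 0 in normoxia. A549, HCT-116 and PC3 cells thus lacked several defining markers of their tissues. Levels are CPM after TMM scaling throughout, and in bulk RNA a lower level cannot be told apart from fewer cells that contain the transcript.

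Promoters are shown first for the 6 carriers with a matched sequence that were called in the same direction in 3 lines, as the places where a shared signal could be looked for. The sequences are RefSeq promoters on GRCh38.p14, from 250 bases before to 50 bases after the gene start, printed 5′ to 3′ on the strand of the gene. Capitals mark ACGTG or GCGTG on either strand, so that CACGT and CACGC are the same motifs read on the other strand, and CACGTG holds ACGTG on both strands. SLC25A1 (chr22:19178687-19178986, minus strand) and SLC25A23 (chr19:6459743-6460042, minus strand) were higher in hypoxia in 3 lines, and SLC25A12 (chr2:171894195-171894494, minus strand), SLC25A17 (chr22:40819297-40819596, minus strand), SLC25A33 (chr1:9539215-9539514, plus strand) and SLC25A46 (chr5:110738757-110739056, plus strand) were lower in 3 lines.
SLC25A1: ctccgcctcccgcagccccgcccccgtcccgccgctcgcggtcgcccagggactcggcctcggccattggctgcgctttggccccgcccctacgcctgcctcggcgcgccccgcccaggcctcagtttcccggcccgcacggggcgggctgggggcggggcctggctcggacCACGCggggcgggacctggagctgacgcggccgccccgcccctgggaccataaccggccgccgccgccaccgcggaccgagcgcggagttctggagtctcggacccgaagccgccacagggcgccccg
SLC25A23: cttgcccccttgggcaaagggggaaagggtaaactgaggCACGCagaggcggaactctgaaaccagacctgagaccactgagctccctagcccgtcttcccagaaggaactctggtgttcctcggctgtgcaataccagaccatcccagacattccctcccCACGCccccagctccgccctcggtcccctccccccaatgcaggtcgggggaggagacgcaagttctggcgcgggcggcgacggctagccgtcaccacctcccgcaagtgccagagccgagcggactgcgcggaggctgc
SLC25A12: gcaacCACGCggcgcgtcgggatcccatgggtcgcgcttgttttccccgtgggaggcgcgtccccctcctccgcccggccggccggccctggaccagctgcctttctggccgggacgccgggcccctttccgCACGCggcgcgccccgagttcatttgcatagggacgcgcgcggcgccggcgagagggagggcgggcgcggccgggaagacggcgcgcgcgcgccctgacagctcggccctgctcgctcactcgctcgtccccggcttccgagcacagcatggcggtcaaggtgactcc
SLC25A17: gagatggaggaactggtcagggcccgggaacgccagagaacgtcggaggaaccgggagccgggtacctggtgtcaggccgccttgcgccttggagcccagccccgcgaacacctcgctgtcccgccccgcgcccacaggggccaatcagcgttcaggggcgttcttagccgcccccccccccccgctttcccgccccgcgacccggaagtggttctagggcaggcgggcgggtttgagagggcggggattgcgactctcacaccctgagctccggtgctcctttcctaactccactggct
SLC25A33: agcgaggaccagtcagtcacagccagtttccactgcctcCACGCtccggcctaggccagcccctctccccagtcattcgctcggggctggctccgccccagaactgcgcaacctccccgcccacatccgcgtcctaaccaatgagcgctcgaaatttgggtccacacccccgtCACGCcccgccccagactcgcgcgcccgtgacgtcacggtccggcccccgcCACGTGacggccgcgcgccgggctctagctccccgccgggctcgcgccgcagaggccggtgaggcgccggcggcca
SLC25A46: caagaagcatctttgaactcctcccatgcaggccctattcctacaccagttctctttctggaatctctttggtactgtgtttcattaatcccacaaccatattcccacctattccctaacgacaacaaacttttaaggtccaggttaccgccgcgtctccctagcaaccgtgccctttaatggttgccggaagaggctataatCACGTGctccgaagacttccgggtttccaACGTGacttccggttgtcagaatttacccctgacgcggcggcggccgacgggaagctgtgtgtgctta

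A RefSeq promoter was matched for 40 of the 48 carriers, with SLC25A16 among those not matched. ACGTG or GCGTG lay in 32 of these 40 windows (80%), compared with 48.4% of all 27305 RefSeq promoters. That background held RefSeq genes of any kind and was not matched to the carriers in base composition, gene type or expression. The differences from it thus cannot be read as enrichment of a HIF motif in the family. Counted with or without the other motif, GCGTG was in 31 of 40 (77.5%, against 36.3% of all promoters) and ACGTG in 11 of 40 (27.5%, against 21.6%). Either motif was in 7 of 8 promoters of carriers called higher in any line, in 12 of 15 of those called lower, and in 14 of 18 of those called in no line. Among the printed promoters, that of SLC25A46 had CACGTG and a further ACGTG within 50 bases before the gene start, and that of SLC25A33 had CACGTG just before it and GCGTG further upstream. The promoters of SLC25A12, SLC25A1 and SLC25A23 held GCGTG alone, and that of SLC25A17 held neither motif. CACGTG was in 2 of the 4 lowered carriers shown, compared with 7.43% of all RefSeq promoters and 17.5% of the 40 carriers. It was in 3 of 15 carriers called lower in any line, 0 of 8 called higher and 4 of 18 called in no line. A match is a description of letters in these windows, and neither a match nor its absence shows whether HIF binds there. Binding was not tested.

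Of the 48 carriers, 40 passed the filter on low counts in each line, 4 (SLC25A34, SLC25A41, SLC25A48 and SLC25A53) in some lines, and 4 in no line. The last group comprised SLC25A2, an ornithine carrier with a highest count of 14, SLC25A31, the testis ADP/ATP carrier with a highest count of 5, SLC25A52, with a highest count of 4, and SLC25A47, a liver carrier with a highest count of 2. A gene was called when its adjusted p in edgeR's quasi-likelihood test was under 0.05 and its fold change was over 1.2. In A549 cells, 6 of 40 carriers were called higher (15%, against 17.6% of all genes tested) and 9 lower (22.5%, against 17.8%). In HCT-116 cells, 5 of 43 were higher (11.6%, against 23.3%) and 12 lower (27.9%, against 27.0%). In PC3 cells, 3 of 41 were higher (7.32%, against 16.6%) and 10 lower (24.4%, against 15.7%). In T47D cells, 0 of 42 were higher (against 6.55% of all genes) and 3 lower (7.14%, against 6.69%). The shares called lower were near those of all genes or somewhat above, and the shares called higher were below them in each line. The median log2 fold change of the carriers tested was -0.00 in A549, -0.24 in HCT-116, -0.14 in PC3 and -0.15 in T47D cells, beside medians of -0.01, -0.03, -0.01 and -0.01 for all genes tested.

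**Figure D1:**
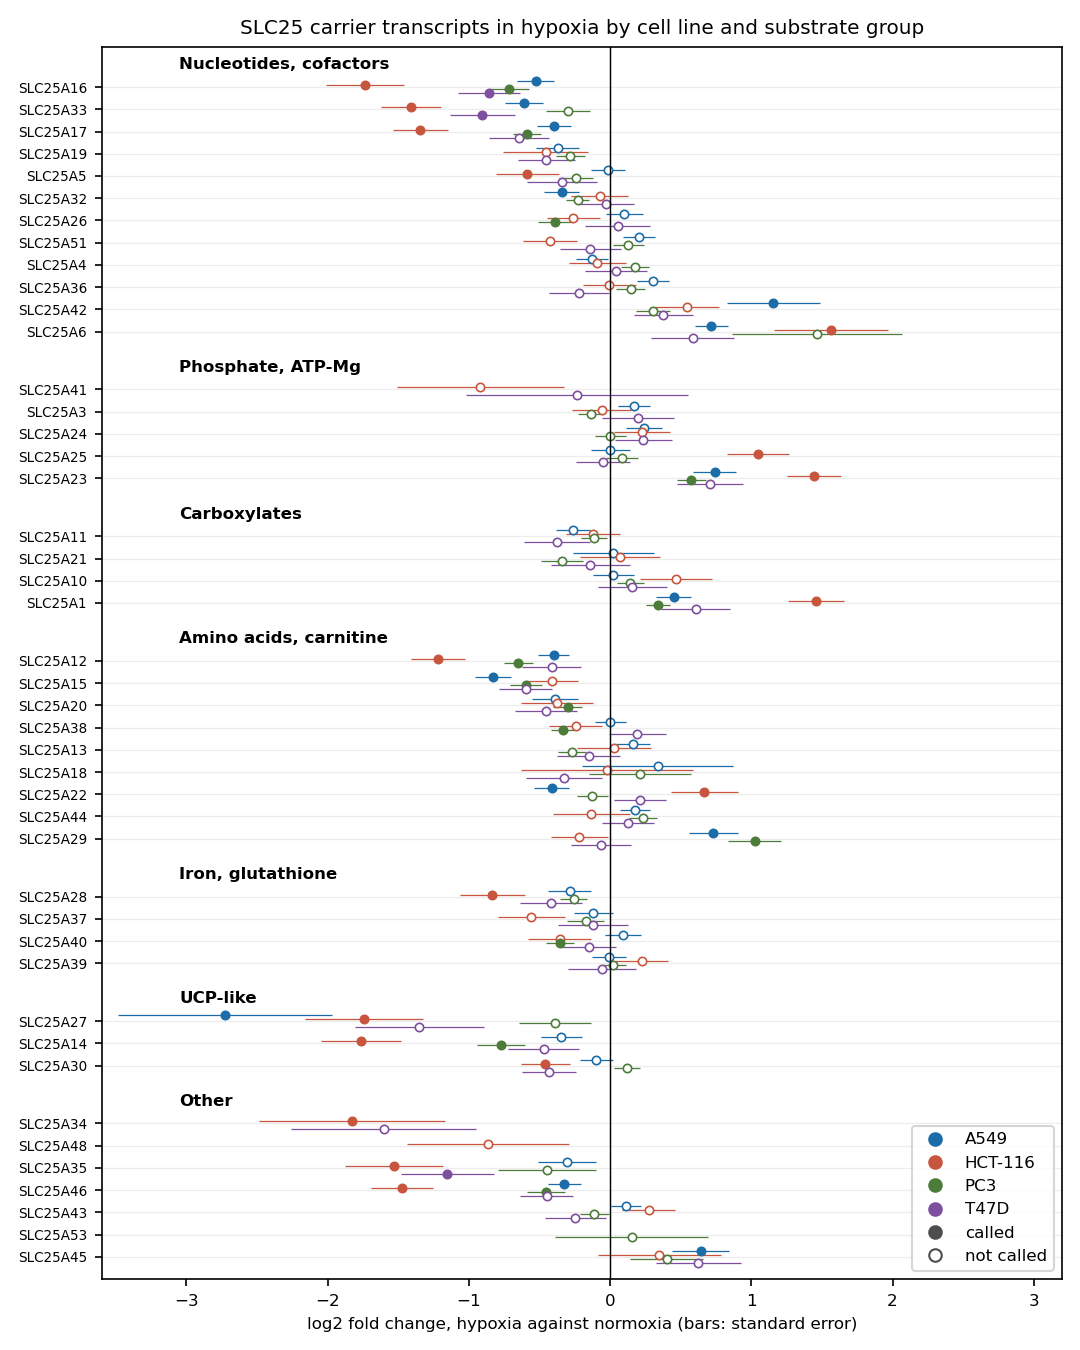
Log2 fold change (hypoxia against normoxia, x axis) of each carrier tested, by substrate group (rows), with 1 point per cell line, bars for the standard error and filled points for carriers called. Called points lie on both sides of 0, and SLC25A16 has filled points left of 0 in each of the 4 lines.

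These counts depended on single libraries, most of all in T47D cells. In T47D cells, edgeR called 2 higher and 7 lower without hypoxia replicate 3 (10.8% and 12.2% of all genes), and 0 higher and 5 lower without normoxia replicate 3 (8.16% and 11.4%). It called 0 in either direction without hypoxia replicate 1, normoxia replicate 1 or normoxia replicate 2, and 1 lower without hypoxia replicate 2, where the share of all genes called was at most 3.76% in either direction. At an unadjusted p under 0.05, 2 carriers were higher and 10 lower in T47D cells, and DESeq2 called 1 higher and 6 lower (7.41% and 8.03% of all genes). Same-numbered libraries deviated together in T47D cells, and blocking on that number in edgeR kept these 3 lower calls and added SLC25A15, SLC25A17 and SLC25A27, and SLC25A23 higher (10.5% of all genes lower and 9.09% higher). In A549 cells, the lower calls numbered 4 without hypoxia replicate 1, and 5 without hypoxia replicate 2, normoxia replicate 1 or normoxia replicate 2, and the higher calls numbered 3 without normoxia replicate 2. The share of all genes called lower in these fits was 10.4% to 13.8%. In PC3 cells, the lower calls numbered 6 without hypoxia replicate 1 or normoxia replicate 1, and 5 without hypoxia replicate 2 or 3, beside 6.4% to 9.67% of all genes called lower. Scaled to total counts alone, A549 cells had 5 higher and 13 lower carriers, beside 12.8% and 24.9% of all genes.

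Over the 4 lines, 26 carriers were called in at least 1 line, 8 higher and 19 lower, with SLC25A22 counted in both. Among the 40 carriers tested in each line, 16 had a negative log2 fold change in all 4 lines, 7 had a positive one in all 4, and 15 were called in no line. SLC25A16 was the 1 carrier called in all 4 lines, although its A549 call was lost in a joint fit of all 24 libraries. SLC25A12, SLC25A17, SLC25A33 and SLC25A46 were lower in 3 lines, and SLC25A1 and SLC25A23 were higher in 3 lines. The shares of all genes with such patterns over the lines were not counted, so the counts cannot be called particular to the carriers. By line, 6.55% to 23.3% of all genes were called higher and 6.69% to 27.0% lower.

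Among carriers of nucleotides and cofactors, 4 of 12 tested were lower in A549 and HCT-116, 3 in PC3 and 2 in T47D cells, while 2, 1, 0 and 0 were higher. The shares lower were 33.3%, 33.3%, 25% and 16.7%, beside 17.8%, 27.0%, 15.7% and 6.69% of all genes. The shares higher were 16.7%, 8.33%, 0% and 0%, beside 17.6%, 23.3%, 16.6% and 6.55% of all genes. SLC25A16, a carrier linked to coenzyme A in the matrix, lies on chromosome 10 (GRCh37 70237755-70287280, minus strand, 9 exons). In HCT-116 cells it had 16.2, 23.5 and 14.4 CPM in the 3 normoxic libraries and 7.68, 5.75 and 4.23 CPM in the 3 hypoxic ones. In T47D cells the levels were 36.4, 35.5 and 23.1 CPM in normoxia and 18.3, 18.9 and 18.5 CPM in hypoxia. The highest hypoxic library lay below the lowest normoxic one in each line. The log2 fold change was -1.73 ± 0.27 (SE; n = 3 against 3; edgeR adjusted p = 0.000306) in HCT-116 and -0.86 ± 0.22 (edgeR adjusted p = 0.026) in T47D cells. In A549 cells the mean fell from 12.8 ± 0.912 to 8.90 ± 0.289 CPM (SD, n = 3; edgeR adjusted p = 0.00914), and in PC3 cells from 22.4 ± 3.17 to 14.2 ± 0.916 CPM (edgeR adjusted p = 0.00582). The T47D calls of SLC25A16, SLC25A33 and SLC25A35 were each lost without hypoxia replicate 1 or 2 or normoxia replicate 1 or 2.

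SLC25A33 carries pyrimidine nucleotides and lies on chromosome 1 (GRCh37 9599524-9645231, plus strand, 7 exons). In HCT-116 cells it had 64.5, 76.1 and 54.1 CPM in normoxia and 31.2, 23.2 and 25.7 CPM in hypoxia. T47D cells had 34.4, 40.8 and 32.4 CPM in normoxia and 17.8, 16.5 and 26.5 CPM in hypoxia, with hypoxia replicate 3 the nearest to the normoxic libraries. SLC25A33 was lower in HCT-116 (log2 fold change -1.41 ± 0.21, edgeR adjusted p = 0.000236), T47D (-0.91 ± 0.23, edgeR adjusted p = 0.0241) and A549 cells (-0.61 ± 0.14, edgeR adjusted p = 0.00492). In PC3 cells the states overlapped, with 11.6, 13.2 and 16.9 CPM in normoxia and 11.5, 11.9 and 11.9 CPM in hypoxia. SLC25A36, the other pyrimidine nucleotide carrier, was not called in any line, at log2 fold changes between -0.22 in T47D and 0.30 in A549 cells.

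SLC25A17, the peroxisomal carrier of coenzyme A and related cofactors (chromosome 22, GRCh37 41165634-41215403, minus strand, 9 exons), had 39.1, 53.0 and 42.7 CPM in normoxic and 21.0, 18.7 and 18.1 CPM in hypoxic HCT-116 cells. In PC3 cells it had 46.8, 41.8 and 47.9 CPM in normoxia and 30.9, 31.0 and 32.4 CPM in hypoxia. The states were apart in each of the 4 lines. The log2 fold change was -1.34 ± 0.20 in HCT-116 (edgeR adjusted p = 0.000201), -0.59 ± 0.10 in PC3 (edgeR adjusted p = 0.00397), -0.40 ± 0.12 in A549 (edgeR adjusted p = 0.0231) and -0.64 ± 0.21 in T47D cells, where it missed the threshold (edgeR adjusted p = 0.0595; 0.0369 with the replicate block). The A549 call was lost without hypoxia replicate 1 or 2 or normoxia replicate 2, and in the joint fit. SLC25A42, which also carries coenzyme A, was the called carrier with the largest increase in A549 cells. Its levels there were low, at 1.57, 0.716 and 0.849 CPM in normoxia and 2.51, 2.44 and 2.0501 CPM in hypoxia (log2 fold change 1.16 ± 0.33, edgeR adjusted p = 0.017). The hypoxic libraries were above the normoxic ones in the other 3 lines too, at log2 fold changes of 0.55 in HCT-116 (edgeR adjusted p = 0.0597), 0.30 in PC3 (edgeR adjusted p = 0.0832) and 0.38 in T47D cells (edgeR adjusted p = 0.243). The A549 call was lost without normoxia replicate 2 or 3.

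**Figure D2:**
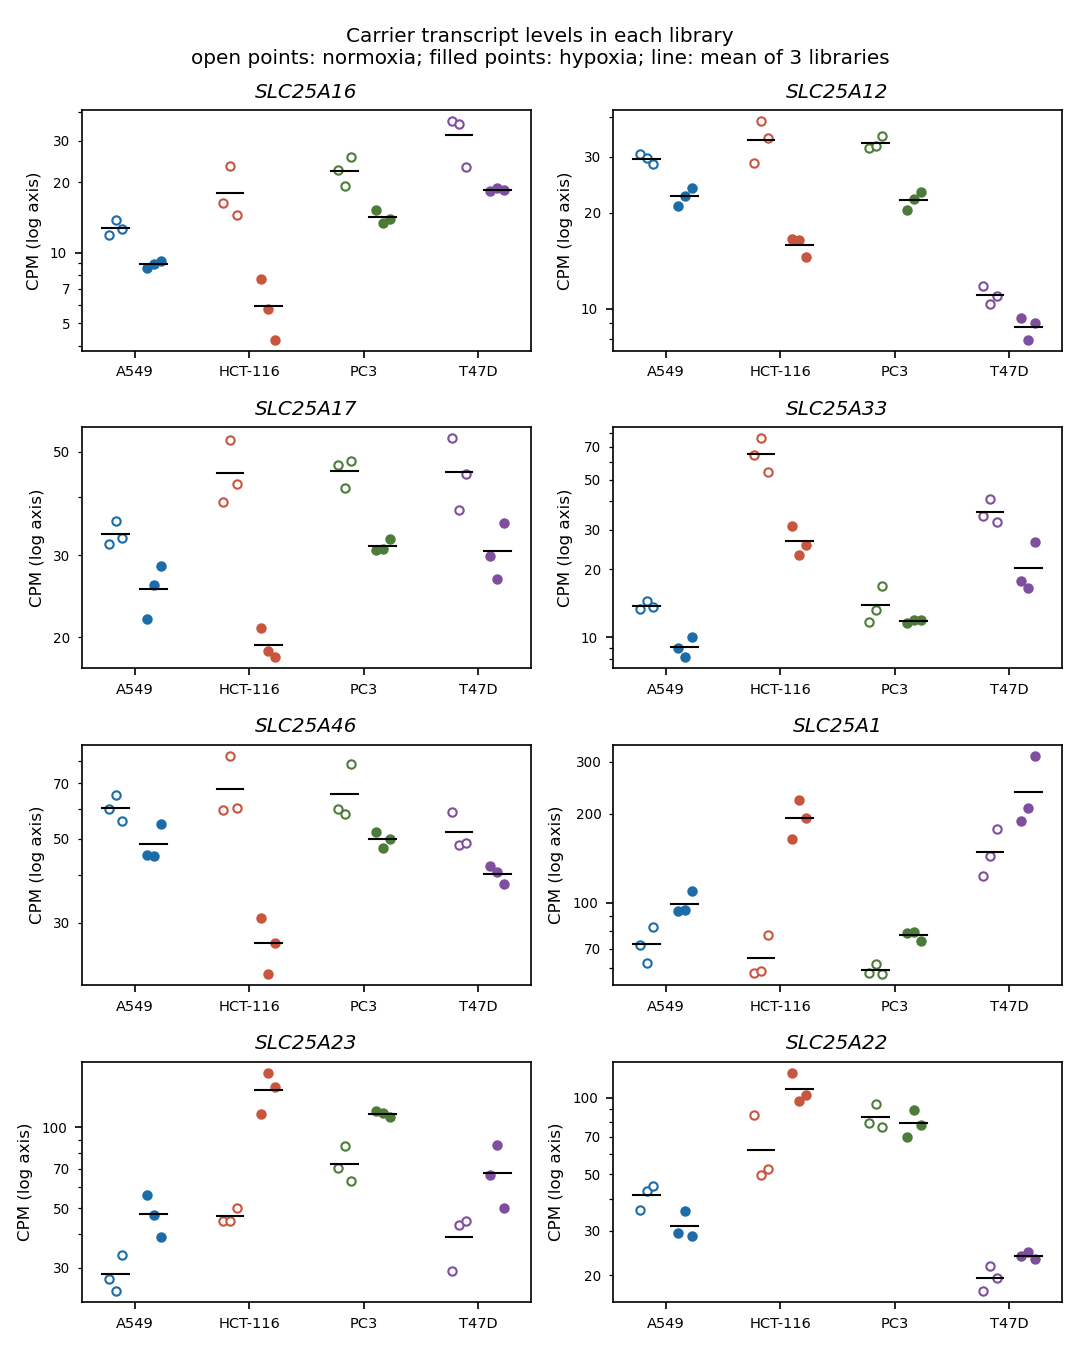
CPM of 8 carriers (log axes) in each library, with open points for normoxia, filled points for hypoxia and lines for the means of 3 libraries, by cell line on the x axis. SLC25A16 in HCT-116 cells falls from a mean of 18.05 to 5.89 CPM, and SLC25A22 moves in opposite directions in A549 and HCT-116 cells.

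The ADP/ATP carriers exchange matrix ATP for cytosolic ADP, and SLC25A5 had the most counts among them. The counts of SLC25A6 are uncertain, as given below, so its true level beside SLC25A5 is not known. Per library size alone, SLC25A3 was at a mean of 766, 890.0 and 628 CPM in A549, HCT-116 and T47D cells in normoxia, above SLC25A5 at 732, 886 and 373 CPM, and below it in PC3 cells, and the 2 differed by less than the spread between libraries in HCT-116 cells. Per kilobase of the canonical transcript, SLC25A5 had the highest normoxic level of all 48 carriers in each line, between 28.8% of the summed per-kilobase level of the family in T47D and 48.2% in HCT-116 cells, followed by the phosphate carrier SLC25A3 and the glutathione carrier SLC25A39 in either order. That order rests on annotated lengths of 1307 bases for SLC25A5 and 5984 bases for SLC25A3, and the transcript forms present were not measured. SLC25A5 (X chromosome, GRCh37 118602385-118605359, plus strand, 4 exons) had 711, 1056 and 889 CPM in normoxic and 598, 735 and 595 CPM in hypoxic HCT-116 cells, so that 1 hypoxic library lay among the normoxic ones. This was the 1 line in which it was called (log2 fold change -0.59 ± 0.22, edgeR adjusted p = 0.0432), and the call was lost with RLE size factors, with scaling to total counts and in 5 of 6 fits that left out 1 library. In T47D cells it had 421, 305 and 394 CPM in normoxia and 274, 255 and 405 CPM in hypoxia (edgeR adjusted p = 0.378). SLC25A4, the heart and muscle form, was not called in any line, with log2 fold changes between -0.13 in A549 and 0.17 in PC3 cells. In HCT-116 cells it had 37.7, 60.2 and 54.5 CPM in normoxia and 52.02, 49.7 and 53.6 CPM in hypoxia, all within the normoxic range. SLC25A31 had counts in 4 of 24 libraries.

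SLC25A6 lies in the pseudoautosomal region and is annotated both on chromosome X (GRCh37 1505045-1511006) and on chromosome Y (1455045-1461006). Fragments without a unique position had been removed before counting, so its counts are uncertain. It had 5.11, 7.98 and 10.3 CPM in normoxic and 10.3, 22.0 and 42.4 CPM in hypoxic HCT-116 cells, and 8.95, 11.2 and 11.05 CPM in normoxic and 9.96, 11.97 and 67.4 CPM in hypoxic PC3 cells. In PC3 cells hypoxia replicate 3 stood far above its group, whereas the HCT-116 hypoxic libraries were spread out. In A549 cells the libraries were close together, with 12.3, 11.9 and 13.0 CPM in normoxia and 20.4, 19.3 and 21.7 CPM in hypoxia. It was called higher in A549 (log2 fold change 0.72 ± 0.12, edgeR adjusted p = 0.000993) and HCT-116 cells (1.56 ± 0.40, edgeR adjusted p = 0.00612). Other protein-coding genes annotated on both sex chromosomes also scattered between replicates, though often in other groups than SLC25A6: 10 of 11 with a mean of at least 50 counts in any group, SLC25A6 included, had a ratio of over 3 between the highest and lowest replicate of a group, compared with 6.60% of 14500 genes of that depth. Among these were CD99, with a ratio of up to 25.2, and VAMP7, with a ratio of up to 16.9, while SLC25A6 reached 6.77. In A549 cells CD99 and VAMP7 reached 9.75 and 15.1, where the ratio of SLC25A6 was at most 1.12. The part of this scatter in the change of SLC25A6 was not tested.

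**Figure D3:**
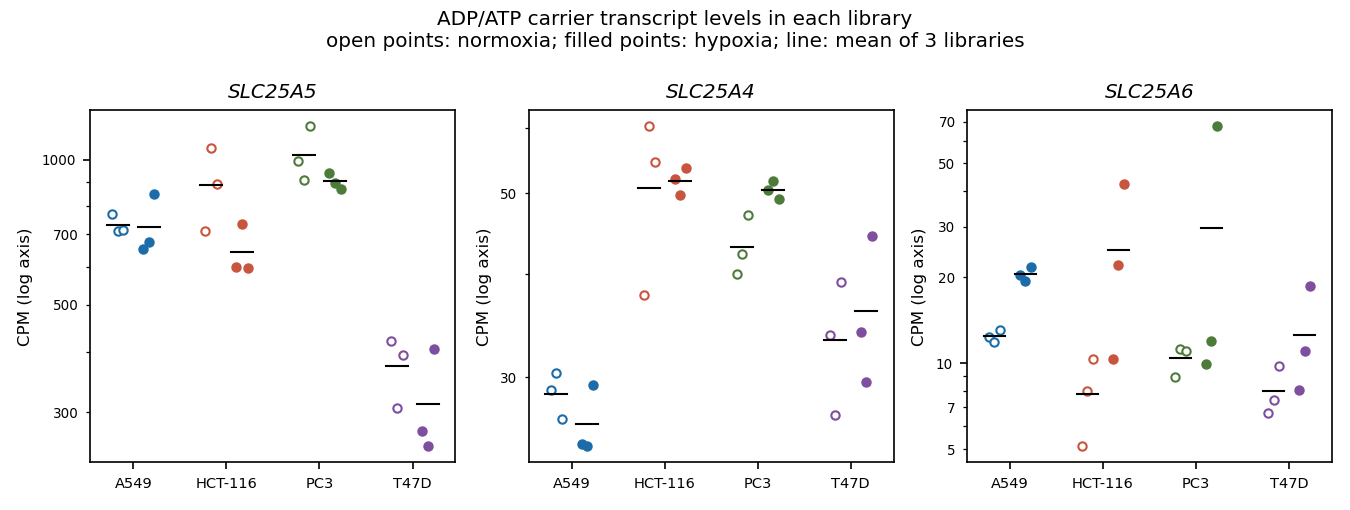
CPM of the 3 ADP/ATP carriers with counts in all libraries (log axes), with open points for normoxia, filled points for hypoxia and lines for the means of 3 libraries. SLC25A5 lies between 255 and 1172 CPM, far above SLC25A4 and above SLC25A6 as counted, whose counts are uncertain. For SLC25A6, 1 hypoxic library of PC3 cells stands out, at 67.4 CPM.

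Of the 4 or 5 phosphate and ATP-Mg carriers tested in a line, none was called lower in any line, and SLC25A23 was higher in 3. By line, 6.69% to 27.0% of all genes were called lower. SLC25A23 exchanges ATP-Mg for phosphate and is regulated by calcium (chromosome 19, GRCh37 6436090-6465214, minus strand, 10 exons). It had 44.7, 45.0 and 50.02 CPM in normoxic and 112, 159.6 and 141 CPM in hypoxic HCT-116 cells. In PC3 cells the levels were 70.7, 84.9 and 63.1 CPM in normoxia and 115, 113 and 109 CPM in hypoxia. Each hypoxic library lay above each normoxic library in all 4 lines. The log2 fold change was 1.44 ± 0.19 in HCT-116 (edgeR adjusted p = 0.00015), 0.74 ± 0.15 in A549 (edgeR adjusted p = 0.0033), 0.58 ± 0.10 in PC3 (edgeR adjusted p = 0.00471) and 0.71 ± 0.23 in T47D cells (edgeR adjusted p = 0.0621; 0.0395 with the replicate block). These calls in A549, HCT-116 and PC3 cells were kept in each alternative run. SLC25A25, a further ATP-Mg carrier described after its values were seen, was higher in HCT-116 cells, with 18.1, 11.9 and 12.6 CPM in normoxia and 28.5, 36.9 and 31.0 CPM in hypoxia (log2 fold change 1.05 ± 0.22, edgeR adjusted p = 0.00171). In the other 3 lines its log2 fold change was between -0.05 and 0.08. SLC25A3, which imports phosphate for ATP synthesis, was not called in any line, with log2 fold changes between -0.14 in PC3 and 0.20 in T47D cells.

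Of the 4 carboxylate carriers, 1 (25%) was called higher in A549, HCT-116 and PC3 cells, beside 17.6%, 23.3% and 16.6% of all genes. This was SLC25A1, which exports citrate to the cytosol (chromosome 22, GRCh37 19163094-19166252, minus strand, 9 exons). It had 58.0, 58.7 and 78.1 CPM in normoxic and 164, 223 and 193 CPM in hypoxic HCT-116 cells. PC3 cells had 57.9, 62.1 and 57.3 CPM in normoxia and 79.0, 79.4 and 74.2 CPM in hypoxia, and T47D cells 123, 144 and 178 CPM in normoxia and 189, 208 and 314 CPM in hypoxia. The states were apart in each line. SLC25A1 was 2.75-fold higher in HCT-116 cells (log2 fold change 1.46 ± 0.20, edgeR adjusted p = 0.000163), 1.36-fold in A549 (0.45 ± 0.12, edgeR adjusted p = 0.0146) and 1.27-fold in PC3 cells (0.34 ± 0.08, edgeR adjusted p = 0.0144). In T47D cells the log2 fold change of 0.60 ± 0.24 missed the threshold (edgeR adjusted p = 0.114). The PC3 call was lost without hypoxia replicate 1, hypoxia replicate 2 or normoxia replicate 1, and the A549 call without normoxia replicate 2. Both were also lost in the joint fit. The dicarboxylate carrier SLC25A10 and the oxoglutarate carrier SLC25A11 had log2 fold changes of 0.02 to 0.47 and of -0.38 to -0.11.

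Among the 9 carriers of amino acids and carnitine tested, 3 were lower in A549, 1 in HCT-116, 4 in PC3 and 0 in T47D cells, and 1 was higher in each of A549, HCT-116 and PC3 cells. The shares lower were 33.3%, 11.1%, 44.4% and 0%, beside 17.8%, 27.0%, 15.7% and 6.69% of all genes. The share higher was 11.1% in A549, HCT-116 and PC3 cells, beside 17.6%, 23.3% and 16.6% of all genes. SLC25A12, the aspartate/glutamate carrier of the malate-aspartate shuttle (chromosome 2, GRCh37 172639915-172864766, minus strand, 18 exons), had 28.6, 38.7 and 34.2 CPM in normoxic and 16.5, 16.4 and 14.5 CPM in hypoxic HCT-116 cells. PC3 cells had 32.0, 32.5 and 34.9 CPM in normoxia and 20.3, 22.0 and 23.3 CPM in hypoxia. The states were apart in each line. The log2 fold change was -1.22 ± 0.19 in HCT-116 (edgeR adjusted p = 0.000293), -0.65 ± 0.10 in PC3 (edgeR adjusted p = 0.00303), -0.40 ± 0.11 in A549 (edgeR adjusted p = 0.0131) and -0.41 ± 0.21 in T47D cells (edgeR adjusted p = 0.198). The A549 call was lost without hypoxia replicate 1, hypoxia replicate 2 or normoxia replicate 1. Its homolog SLC25A13 was not called in any line, with log2 fold changes between -0.27 and 0.16.

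SLC25A15, the ornithine carrier of the urea cycle, was lower in A549 cells, with 34.1, 37.8 and 31.4 CPM in normoxia and 19.4, 22.0 and 16.9 CPM in hypoxia (log2 fold change -0.83 ± 0.13, edgeR adjusted p = 0.000686), and in PC3 cells (-0.60 ± 0.11, edgeR adjusted p = 0.0057). The states were apart in T47D cells too, where the adjusted p was 0.0517 in edgeR and 0.035 with the replicate block. SLC25A29, a carrier of basic amino acids, was higher in PC3 cells, with 21.5, 20.8 and 19.3 CPM in normoxia and 58.5, 39.2 and 32.2 CPM in hypoxia (log2 fold change 1.02 ± 0.19, edgeR adjusted p = 0.00507), and in A549 cells (0.73 ± 0.17, edgeR adjusted p = 0.00636). In HCT-116 and T47D cells its states overlapped, at log2 fold changes of -0.22 and -0.06.

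SLC25A22, a glutamate carrier (chromosome 11, GRCh37 790475-798281, minus strand, 10 exons), was the 1 carrier called in opposite directions. It had 36.2, 43.1 and 45.0 CPM in normoxic and 29.3, 35.7 and 28.5 CPM in hypoxic A549 cells. In HCT-116 cells it had 85.0, 49.7 and 52.3 CPM in normoxia and 125, 97.3 and 102 CPM in hypoxia. The log2 fold change was -0.41 ± 0.13 in A549 (edgeR adjusted p = 0.024) and 0.67 ± 0.24 in HCT-116 cells (edgeR adjusted p = 0.0317). The A549 call was lost without hypoxia replicate 1 or 3 or normoxia replicate 2 or 3, and the HCT-116 call without hypoxia replicate 1 or normoxia replicate 2 or 3. The A549 call was also lost in the joint fit.

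Of the iron and glutathione carriers, the mitoferrin SLC25A28 was lower in HCT-116 cells, with 28.1, 25.7 and 20.6 CPM in normoxia and 18.7, 11.7 and 15.1 CPM in hypoxia (log2 fold change -0.83 ± 0.23, edgeR adjusted p = 0.00908). In the other lines it had log2 fold changes between -0.42 and -0.26 and was not called. The other mitoferrin, SLC25A37, was not called in any line, with log2 fold changes between -0.56 in HCT-116 (edgeR adjusted p = 0.0664) and -0.12 in A549 and T47D cells. Its states overlapped in HCT-116 cells, with 36.7, 41.2 and 27.1 CPM in normoxia and 19.6, 34.0 and 24.6 CPM in hypoxia. The glutathione carrier SLC25A39 was not called either, and its homolog SLC25A40 was lower in PC3 cells.

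The 3 carriers related to the uncoupling proteins were each lower in HCT-116 cells, where 27.0% of all genes were lower. SLC25A14 had 9.77, 16.2 and 12.01 CPM in normoxic and 5.42, 3.54 and 3.09 CPM in hypoxic HCT-116 cells (log2 fold change -1.76 ± 0.28, edgeR adjusted p = 0.000327). In PC3 cells it fell from 14.6, 10.1 and 14.6 CPM to 8.11, 8.35 and 7.39 CPM (-0.77 ± 0.17, edgeR adjusted p = 0.00983). SLC25A27, a neuronal member, had 2.86, 4.69 and 1.64 CPM in normoxic and 0.984, 1.09 and 0.926 CPM in hypoxic HCT-116 cells (-1.74 ± 0.42, edgeR adjusted p = 0.00399), and it was also lower in A549 cells, where all libraries were under 1 CPM and the call was lost without normoxia replicate 1. SLC25A30 was lower in HCT-116 cells by 0.46 on the log2 scale (edgeR adjusted p = 0.0387), a call that was lost in 11 of 13 alternatives. Of 4 homologs tested outside the symbol rule, UCP2 was higher and UCP3 and MTCH2 were lower in HCT-116 cells. There, 23.3% of all genes were higher and 27.0% lower. UCP3 had only 0 to 10 counts by library in hypoxic HCT-116 cells. It was also lower in A549 cells, beside 17.8% of all genes, and MTCH1 was higher in PC3 cells, beside 16.6%. None of these homologs was called in T47D cells.

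Among the other carriers, SLC25A46, an outer membrane protein that takes part in mitochondrial fusion and fission (chromosome 5, GRCh37 110073837-110100861, plus strand, 8 exons), had 59.7, 82.8 and 60.2 CPM in normoxic and 30.9, 21.9 and 26.5 CPM in hypoxic HCT-116 cells (log2 fold change -1.48 ± 0.22, edgeR adjusted p = 0.000215). In PC3 cells the log2 fold change was -0.45 ± 0.13 (edgeR adjusted p = 0.0281) and in A549 cells -0.32 ± 0.12 (edgeR adjusted p = 0.0453). The PC3 call was lost without any 1 of the 3 hypoxic libraries, and the A549 call without hypoxia replicate 1 or 2 or normoxia replicate 1 or 2. Both were also lost in the joint fit, and the A549 call with RLE size factors and with the replicate block. SLC25A35, whose substrate is not settled, was lower in T47D cells, with 4.41, 6.53 and 3.54 CPM in normoxia and 2.15, 1.85 and 2.91 CPM in hypoxia (-1.15 ± 0.33, edgeR adjusted p = 0.0389), and in HCT-116 cells (-1.53 ± 0.35, edgeR adjusted p = 0.00283). Its exons overlap those of RANGRF on the opposite strand, and the strand setting of the counting is not given in the sources used here, so its counts are uncertain. The same holds for SLC25A25 with NAIF1, SLC25A26 with LRIG1, SLC25A32 with DCAF13 and SLC25A40 with DBF4. Calls near the threshold were made for SLC25A32 (lower) and SLC25A45 (higher) in A549, SLC25A34 (lower) in HCT-116, and SLC25A20, SLC25A26, SLC25A38 and SLC25A40 (lower) in PC3 cells, with edgeR adjusted p values between 0.0168 and 0.0494, and each was lost in at least 4 of 6 fits that left out 1 library.

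Ratios within a library were then compared for pairs of related carriers, since the scaling between libraries cancels in them. The 9 pairs with enough counts were tested by an exact permutation of the oxygen states within lines (two-sided), with adjusted p values over the 9 pairs. The ratio of SLC25A33 to SLC25A36 was lower in hypoxia by 0.86 on the log2 scale, averaged over the lines (exact permutation test, adjusted p = 0.000225). It went from -0.52 ± 0.15 (SD, n = 3) to -1.91 ± 0.40 in HCT-116 cells and from -1.499 ± 0.12 to -2.41 ± 0.11 in A549 cells. The ratio of SLC25A12 to SLC25A13 was lower by 0.60 (exact permutation test, adjusted p = 0.000638), from 0.83 ± 0.40 to -0.34 ± 0.59 in HCT-116 cells. The ratio of SLC25A23 to SLC25A24 was higher by 0.68 (exact permutation test, adjusted p = 0.000984). These 3 ratios moved in the same direction in each line, although the states overlapped for the first pair in PC3 and T47D, for the second in T47D, and for the third in A549 and T47D cells.

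The ratio of SLC25A4 to SLC25A5 was higher in hypoxia by 0.30 (exact permutation test, adjusted p = 0.00166), with the states apart in HCT-116, PC3 and T47D cells and a difference of -0.10 in A549 cells. Without the libraries numbered 1 its adjusted p was 0.0611. The ratio of SLC25A6 to SLC25A5 was higher by 1.17 (exact permutation test, adjusted p = 0.000225), with the uncertainty of SLC25A6 given above. SLC25A5 accounted for 93.8% ± 0.566 (SD, n = 3) of the ADP/ATP carrier counts in normoxic and 89.3% ± 2.74 in hypoxic HCT-116 cells, and for 90.0% ± 1.14 and 86.5% ± 0.237 in T47D cells. These shares include SLC25A6 as counted after non-unique fragments had been removed. They are shares of counts and cannot be read as relative abundance of the transcripts. For SLC25A39/SLC25A40 the difference was 0.23 (exact permutation test, adjusted p = 0.0861; 0.0396 with the replicate block, by sign flips), and for SLC25A28/SLC25A37 it was -0.22 (exact permutation test, adjusted p = 0.12). SLC25A25/SLC25A24 and SLC25A22/SLC25A18 differed by 0.10 and 0.06 (exact permutation test, adjusted p = 0.606 and 0.777).

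**Figure D4:**
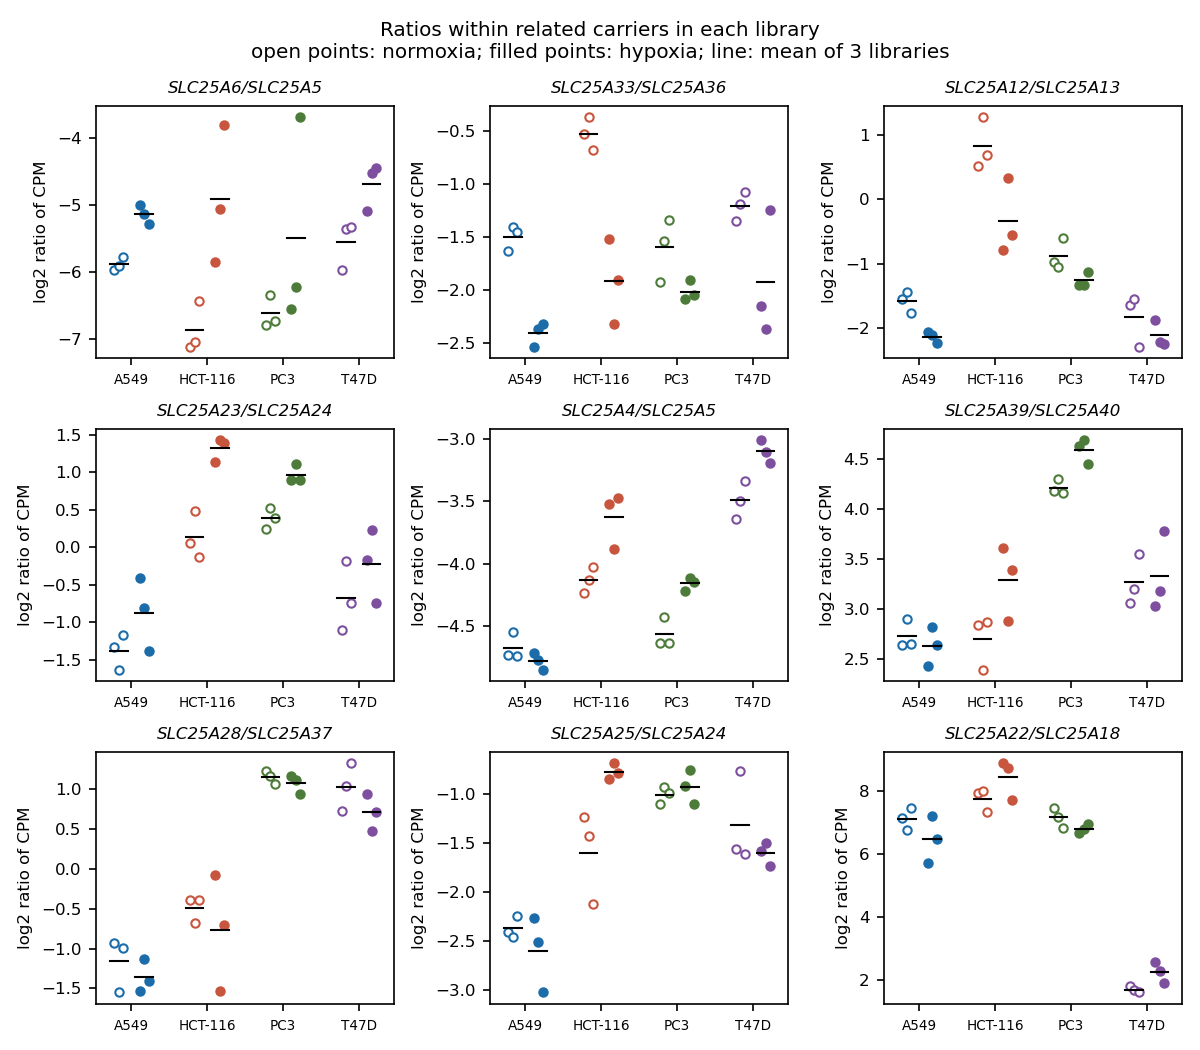
Log2 ratio of CPM within each of the 9 pairs (y axes) in each library, with open points for normoxia, filled points for hypoxia and lines for the means of 3 libraries, by cell line. In A549 cells the ratio of SLC25A33 to SLC25A36 falls from -1.499 to -2.41, with no overlap between states.

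The hypoxia effect was next compared between lines by the interaction of line and oxygen over all 24 libraries. Of 44 carriers tested, 11 (25%) differed between lines, compared with 18.3% of all genes tested. They were SLC25A25, SLC25A46, SLC25A1, SLC25A22, SLC25A29, SLC25A14, SLC25A12, SLC25A17, SLC25A33, SLC25A16 and SLC25A23, with edgeR adjusted p values between 0.0032 and 0.0465. HCT-116 cells had the log2 fold change farthest from 0 for each of these but SLC25A29. Leaving out the libraries of 1 number in all groups lowered the count to 4 without number 1, 0 without number 2 and 5 without number 3. The number of all genes called then also fell, from 2940 of 16089 to 165 of 16105 without number 2. The shares of all genes without number 1 or 3 are not given here. The lower counts thus cannot be called particular to the carriers.

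In normoxia, the level of 42 of 43 carriers tested differed between the 4 lines (97.7%, compared with 93.5% of all genes tested). SLC25A46 was the exception (edgeR adjusted p = 0.173). The highest mean was a median of 2.80-fold above the lowest, over 2-fold for 31 carriers and over 4-fold for 14. The highest level was in PC3 cells for 14 carriers, in HCT-116 for 13, in T47D for 9 and in A549 cells for 7. SLC25A30 was at 214 CPM in PC3 cells and 18.9 CPM in T47D cells, an 11.3-fold difference (edgeR adjusted p = 8.71e-13), with T47D and A549 cells overlapping at the low end. The glutamate carrier SLC25A18 was at 5.99 CPM in T47D cells and at 0.250 CPM in HCT-116 cells, a 23.99-fold difference (edgeR adjusted p = 1.88e-09), while the related SLC25A22 was lowest in T47D, at 19.5 CPM, and highest in PC3 cells, at 83.6 CPM. SLC25A27 was 10.8-fold higher in T47D than in A549 cells, SLC25A42 was 8.70-fold higher in PC3 than in A549 cells, and the adjacent lines T47D and PC3 overlapped for SLC25A42. SLC25A29 ranged from 8.23 CPM in A549 to 51.9 CPM in T47D cells, a 6.30-fold difference. SLC25A13 was 4.69-fold higher in A549 than in HCT-116 cells, whereas its homolog SLC25A12 was highest in HCT-116, at 33.9 CPM, and lowest in T47D cells, at 11.03 CPM.

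**Figure D5:**
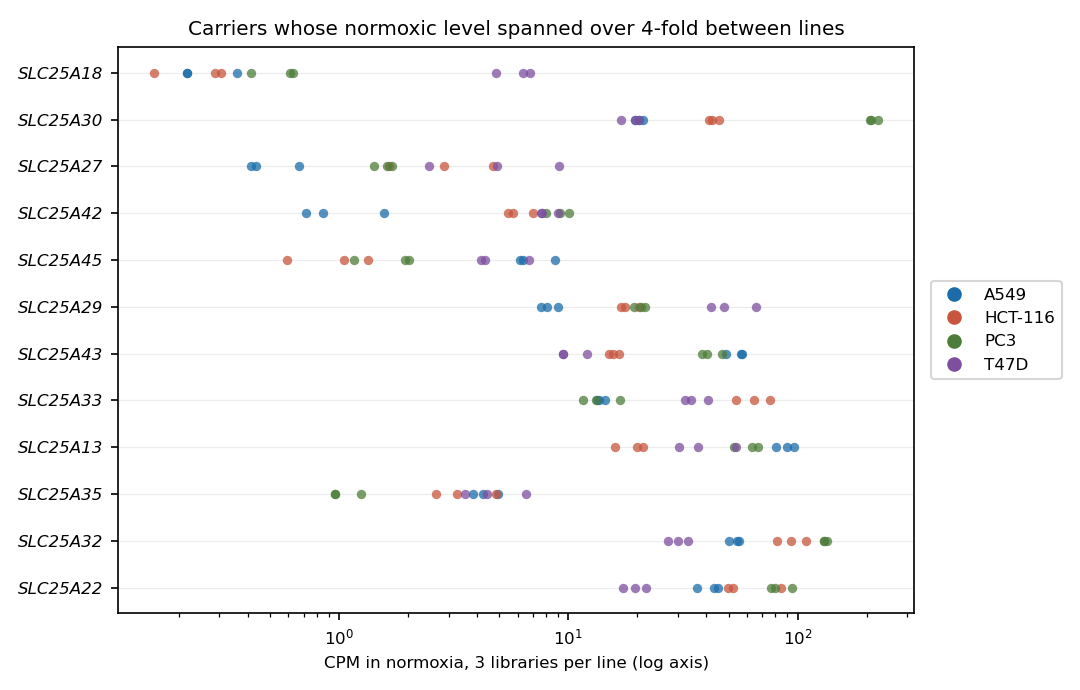
CPM in normoxia (log axis) of the carriers above 1 CPM in any line whose line means spanned over 4-fold, with 3 points per line. SLC25A30 in PC3 cells and SLC25A18 in T47D cells stand clear of the other lines, at means of 214 and 5.99 CPM.

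Carriers reach the inner membrane with the help of the small TIM chaperones, the TOM receptor TOMM70A and the TIMM22 insertase, and 6 such genes were counted as a related list. In hypoxia, 4 of these 6 were lower in A549, 3 in HCT-116, 4 in PC3 and 1 in T47D cells. Of all genes, 17.8%, 27.0%, 15.7% and 6.69% were lower in these lines. In PC3 cells 1 of the 6 was higher, beside 16.6% of all genes. TIMM9, a chaperone of the intermembrane space, was called lower in all 4 lines, although its states overlapped in A549 and T47D cells. Its A549 libraries had 29.0 to 43.5 CPM in normoxia and 23.8 to 30.1 CPM in hypoxia. The T47D libraries had 35.5 to 71.1 and 23.9 to 38.6 CPM. TIMM9 was added after its values were seen, and its fits without single libraries are not given here. It had 47.8, 69.1 and 33.9 CPM in normoxic and 14.2, 18.7 and 13.1 CPM in hypoxic HCT-116 cells (log2 fold change -1.85 ± 0.27, edgeR adjusted p = 0.000197), and -0.98 ± 0.28 in T47D cells (edgeR adjusted p = 0.039). Its partner TIMM10 was lower in A549, HCT-116 and PC3 cells, by 2.19 on the log2 scale in HCT-116 cells (edgeR adjusted p = 0.000127), and TIMM10B in the same 3 lines. Among 17 other genes of mitochondrial transport, 2 were higher and 4 lower in A549, 3 and 7 in HCT-116, 1 and 3 in PC3, and 2 and 1 in T47D cells. As shares, 11.8%, 17.6%, 5.88% and 11.8% were higher, beside 17.6%, 23.3%, 16.6% and 6.55% of all genes. The shares lower were 23.5%, 41.2%, 17.6% and 5.88%, beside 17.8%, 27.0%, 15.7% and 6.69% of all genes. The outer membrane channel VDAC1 was higher in A549, HCT-116 and T47D cells, by 0.93 on the log2 scale in HCT-116 cells (edgeR adjusted p = 0.00241). The pyruvate carrier subunit MPC2 was lower in HCT-116 and T47D cells, by log2 fold changes of -1.43 and -1.38 (edgeR adjusted p = 0.000256 and 0.00655), and MPC1 in HCT-116 cells (-1.72, edgeR adjusted p = 0.000262).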

How the data were processed

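RNA-seq counts came from 24 libraries of 4 cell lines in normoxia or hypoxia, 3 per group, grouped by their labels. The authors deposited raw counts per gene symbol. Per the study's methods, reads were trimmed with Trim Galore 0.3.3, aligned with HISAT2 2.05 to GRCh37 (hg19), stripped of non-unique fragments with Picard 2.0.1 and counted with HTSeq 0.5.4p3. The strand setting is not given in the sources used here. Totals of 22698584 to 62850747 counts put the floor of 3 counts well under 1 CPM.

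Each line was fitted with edgeR 4.0.16 (R 4.3.3; filterByExpr, TMM, quasi-likelihood test, Benjamini-Hochberg over all genes tested), and calls required both an adjusted p below 0.05 and a change of more than 1.2-fold. CPM used 1 set of TMM factors over all libraries, and log2 ratios used a prior count of 2. The interaction was fitted in 24 libraries and the normoxic level in 12. Values by library, in the lines where a result turned on them, were given for carriers called in the same direction in 3 or 4 lines or in opposite directions, the ADP/ATP carriers, the mitoferrins and, in each line, the 2 largest called increases and decreases at a mean of at least 50 counts. SLC25A25 and TIMM9 were added after their values were seen. Other settings comprised a joint fit, 2 other count filters, scaling by RLE or by totals alone, the replicate block, omission of libraries, and DESeq2 1.42.0. Procedures were tested on simulated data. Same-numbered libraries deviated together in T47D cells, with each r over 0.1 (0.154, 0.325 and 0.303). In HCT-116 cells r was 0.288, 0.224 and 0.0707, in A549 0.207, 0.0887 and 0.0826, and in PC3 0.0813, 0.0815 and 0.0785. Between libraries of unlike number and opposite state, the highest r was 0.118 in T47D, 0.0791 in HCT-116, 0.0913 in A549 and -0.0177 in PC3 cells. Each same-numbered r was above that value in T47D and also in PC3 cells, so some pairing is not particular to T47D cells. The block kept 17 of 17 calls and added 3 in HCT-116 cells, 14 of 15 and 1 in A549, and 12 of 13 and 0 in PC3. With it, 26.8% of all HCT-116 genes were higher and 29.6% lower. Blocked values stand beside the T47D results they change, and no main fit has a block. Members and lists were chosen with earlier results of these data known.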

Additional observations from a re-analysis of the deposited data

Results flagged for a closer look

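The change in hypoxia differed between the 4 lines for 11 carriers, by the interaction of line and oxygen in edgeR (18.3% of all genes tested). The count fell to 0 without the libraries numbered 2, where the number of all genes called also fell. The adjusted p was 0.0032 for SLC25A25, 0.00557 for SLC25A46, 0.00692 for SLC25A1, 0.0086 for SLC25A22, 0.0102 for SLC25A29 and 0.0138 for SLC25A14. It was 0.0208 for SLC25A12, 0.0285 for SLC25A17, 0.0303 for SLC25A33, 0.033 for SLC25A16 and 0.0465 for SLC25A23. SLC25A22 was the 1 of these with calls in opposite directions, lower in A549 and higher in HCT-116 cells.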

How the results depend on the processing

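Over the 48 calls and the alternatives in which each was tested, 507 of 622 repeats kept the call and 115 lost it, and 68 calls were gained. For the 19 carriers followed in each line (76 results), 886 of 986 alternative values kept their direction and side of the threshold, 58 lost a call, 42 gained one and 0 reversed. Every alternative kept 4 of 15 calls in A549, 13 of 17 in HCT-116, 7 of 13 in PC3 and 0 of 3 in T47D cells. One fit of all 24 libraries called 3 higher and 4 lower in A549 (8.87% and 7.35% of all genes), 8 higher in HCT-116 (27.1%), 5 lower in PC3 (2.64%), and 2 higher and 6 lower in T47D cells (13.9% and 9.94%). In T47D cells DESeq2 called 1 higher and 6 lower (7.41% and 8.03% of all genes), no filter on low counts 1 and 5 (6.05% and 7.25%), the replicate block 1 and 6 (9.09% and 10.5%), and scaling to total counts 5 lower (10.0%). With totals alone, the all-gene median log2 fold change was -0.13 in A549 and -0.12 in T47D cells. Without 1 library, the calls ranged from 3 to 6 higher and 4 to 10 lower in A549, 4 to 6 and 9 to 11 in HCT-116, 2 to 4 and 5 to 12 in PC3, and 0 to 2 and 0 to 7 in T47D cells. Without 1 replicate number, 0 to 5 carriers differed in their hypoxia effect between lines, 35 to 41 in normoxic level, and 4 to 5 pair ratios passed. The shares of all genes in these fits are not given here, so these ranges cannot be called particular to the carriers. The ratio of SLC25A4 to SLC25A5 lost its call without replicate 1 (adjusted p = 0.0611, exact permutation test), and that of SLC25A39 to SLC25A40 gained one with the replicate block (0.0396). Leaving SLC25A6 out, chosen after seeing the data, was also run. The cause of these shifts was not tested, beyond the fewer libraries where 1 was left out.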
